A study of Rattus norvegicus with 8 samples.

Results

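The genes of the methionine and homocysteine cycle were followed in liver from Goto-Kakizaki rats, which become diabetic while staying lean and serve as a model of type 2 diabetes. Members were all probe sets that the platform annotation assigns to exactly 1 of 10 genes: Bhmt, Mat1a, Mat2a, Gnmt, Ahcy, Cbs, Cth, Mtr, Pemt and Gamt. The 10 genes are among 14217 named on the array. Their probe sets numbered 12 of the 31042 other than the manufacturer's controls, with 3 sets for Mat2a and a single set for each other gene. The persimmon peel group was 4 male rats fed AIN-93G, a purified rodent diet, with an extract of persimmon peel, and the control group was 4 male rats fed AIN-93G alone. Both groups were of the same strain, were fed for 12 weeks and were 18 weeks old, and there was no group of a non-diabetic strain. The dose of the extract is not given in the sources used here. Each liver had 1 array, whose values are MAS5 signals, a linear brightness per probe set.

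The cycle turns methionine into S-adenosylmethionine (SAM), the methyl donor of most methylation reactions, and the methyltransferases that use SAM leave S-adenosylhomocysteine (SAH), which is split into homocysteine and adenosine. Homocysteine is then either methylated back to methionine or passed to cysteine by transsulfuration. The liver is the main site of methionine breakdown, and hepatocytes carry most of the enzymes of the cycle at a high level.

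On the persimmon peel diet, Bhmt was lower, as was 1 of the 3 probe sets of Mat2a, while the sets of Mat1a, Gnmt, Ahcy, Cbs, Cth, Pemt and Gamt did not pass the test. Of the 12 member sets, 10 passed a filter that removed the dimmest 50% of all sets, and the diets were compared with limma across the 15521 sets that remained, with Benjamini-Hochberg adjustment over all of them and a threshold of 0.05. Among the 10 member sets, 2 were lower and 0 were higher. Over all tested sets 4.53% were lower and 0.425% were higher. Without adjustment at a p under 0.05, the same limma fit gave 2 lower and 0 higher member sets, with 13.4% lower and 6.19% higher over all tested sets. The log2 fold change, persimmon peel minus control, was negative in 6 and positive in 4 of the 10 sets, against 51.4% negative over all tested sets, and its median was -0.07 over the member sets and -0.01 over all tested sets.

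The promoters of Bhmt and Mat2a, the members with a lower probe set, are shown from RefSeq on build GRCr8, 250 bases before to 50 bases after the annotated start, 5′ to 3′ on the gene's own strand. Bhmt lies on the minus strand of chromosome 2, and the window is chr2:26614380-26614679. Mat2a lies on the minus strand of chromosome 4, and the window is chr4:106053563-106053862. Capitals mark matches on either strand to 5 short motifs: TATAAA of the TATA box, CCAAT of the CAAT box, GGGCGG of the GC box, CACGTG of the E-box, and AGGTCA, the half-site of many nuclear receptors.
Bhmt: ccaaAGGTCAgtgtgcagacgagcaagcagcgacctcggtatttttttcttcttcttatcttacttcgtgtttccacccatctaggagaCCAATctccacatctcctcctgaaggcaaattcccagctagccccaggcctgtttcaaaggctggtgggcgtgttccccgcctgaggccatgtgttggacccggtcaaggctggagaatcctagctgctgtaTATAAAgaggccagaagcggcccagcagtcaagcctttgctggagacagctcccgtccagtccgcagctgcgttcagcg
Mat2a: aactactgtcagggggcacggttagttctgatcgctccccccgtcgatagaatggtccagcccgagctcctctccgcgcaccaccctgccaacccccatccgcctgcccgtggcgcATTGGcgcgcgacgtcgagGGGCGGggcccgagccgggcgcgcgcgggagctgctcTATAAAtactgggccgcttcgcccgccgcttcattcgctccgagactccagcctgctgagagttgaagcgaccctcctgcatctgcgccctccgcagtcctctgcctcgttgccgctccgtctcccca
TATAAA was found in the windows of 2 of the 10 members, Bhmt and Mat2a, and in 14.2% of 33469 rat promoter windows of the same length. In Bhmt it began 29 bases before the start and in Mat2a 78 bases before it. AGGTCA was found in the windows of Bhmt, Gnmt, Ahcy and Pemt, and in 16.2% of all windows. CCAAT was found in 7 member windows and in 37.5% of all windows, GGGCGG in 7 member windows and in 33.1% of all, and CACGTG in 1 member window, that of Cth, and in 6.42% of all. In the windows printed here no motif overlapped another, and a match of letters is not evidence of binding.

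Bhmt encodes betaine-homocysteine methyltransferase, which uses betaine, a product of choline, to remethylate homocysteine in liver. Its signal was 4789, 4953, 3294 and 3715 in persimmon peel livers 1 to 4, against 5261, 6772, 5832 and 6914 in control livers 1 to 4. Every persimmon peel liver lay below every control liver, with the highest persimmon peel value just under the lowest control value. Such a gap between the diets held for 2 of the 10 member sets and for 12.9% of all tested sets. The mean was 4188 ± 810 on the persimmon peel diet and 6195 ± 786 on the control diet (SD, n = 4 each), with -0.58 as the log2 fold change (95% interval -0.84 to -0.31, SE 0.12, limma adjusted p = 0.0149). Persimmon peel livers 3 and 4 were the lowest, and without liver 3 the log2 fold change was -0.47 (adjusted p = 0.045). The call was lost without control liver 4 (-0.52, adjusted p = 0.0627). It was also lost with no filter on dim sets (adjusted p = 0.0592), without the intensity trend (adjusted p = 0.072) and under quantile normalization (-0.48, adjusted p = 0.0734). In whole liver, fewer cells of a type and less RNA per cell cannot be told apart.

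The other remethylating enzyme of the group, methionine synthase, is encoded by Mtr and uses folate and vitamin B12. Its signal was 32.0, 24.8, 30.8 and 24.5 in the persimmon peel livers, against 26.2, 21.7, 30.4 and 30.7 in the control livers. All of these values were below 34.4, the lowest mean signal of any tested set, so Mtr was not tested. In a fit with no filter its log2 fold change was 0.05, with a 95% interval of -0.49 to 0.58.

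**Figure D1:**
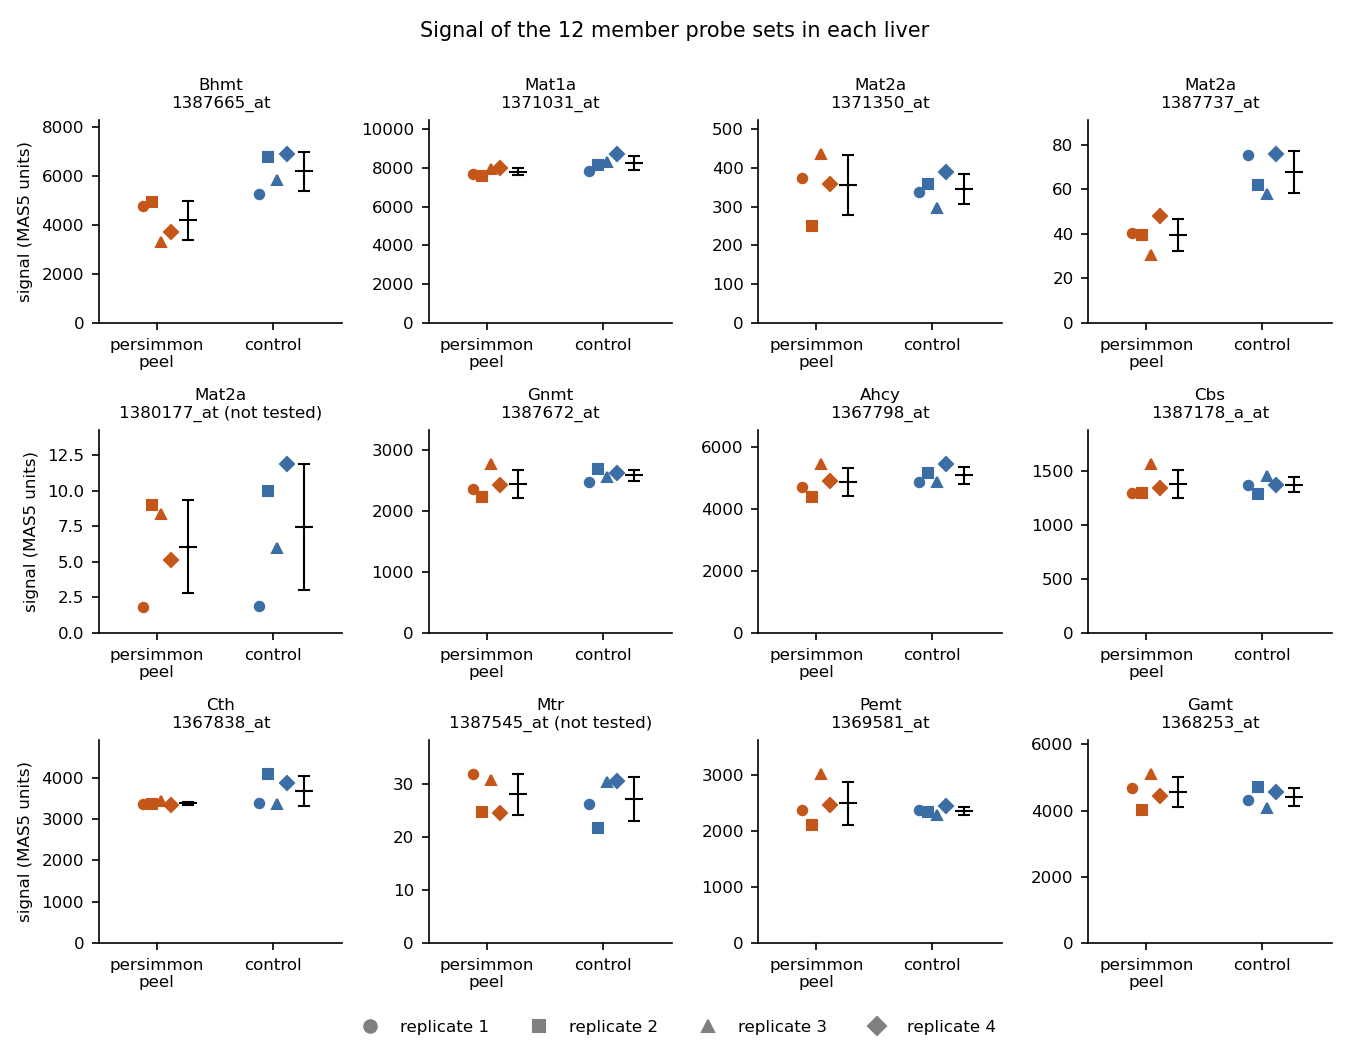
Signal in MAS5 units (linear axes starting at 0) of the 12 member probe sets in each liver, persimmon peel diet left and control diet right, with symbols for the replicate number and a black bar for mean ± SD (n = 4). The diets lie apart in Bhmt (4188 ± 810 against 6195 ± 786) and in the Mat2a set 1387737_at (39.6 ± 7.25 against 67.9 ± 9.30), and overlap in the other 10 panels.

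SAM is made by methionine adenosyltransferase, whose adult hepatocyte form is encoded by Mat1a and whose form in most other tissues and in growing cells is encoded by Mat2a. Mat1a had 7690, 7584, 7916 and 7999 signal units in the persimmon peel livers and 7838, 8132, 8295 and 8722 in the control livers. The highest persimmon peel liver exceeded the lowest control liver, and the log2 fold change of -0.08 did not pass (SE 0.06, 95% interval -0.20 to 0.04, adjusted p = 0.462). The interval of Mat1a is the narrowest among the members.

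The probe sets of Mat2a did not change alike. The brightest, 1371350_at, had 374, 251, 436 and 357 units in the persimmon peel livers and 337, 359, 295 and 388 in the control livers, so that the highest and the lowest value of all both came from the persimmon peel diet. Its log2 fold change was 0.02 (SE 0.15, 95% interval -0.30 to 0.34, adjusted p = 0.959). The dimmer tested set, 1387737_at, had 40.5, 39.4, 30.5 and 48.2 units in the persimmon peel livers and 75.6, 62.1, 57.9 and 76.0 in the control livers. Here all persimmon peel livers were below all control livers, and several were close to 34.4 units, the lowest mean tested. The mean was 39.6 ± 7.25 on the persimmon peel diet and 67.9 ± 9.30 on the control diet (SD, n = 4 each), and -0.78 was the log2 fold change (adjusted p = 0.0245, SE 0.18). The third set, 1380177_at, ran from 1.86 to 8.97 units in the persimmon peel livers and from 1.90 to 11.9 in the control livers, and was not tested.

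The log2 difference between the dimmer and the brighter tested set of Mat2a was -3.21, -2.67, -3.84 and -2.89 in persimmon peel livers 1 to 4, against -2.15, -2.53, -2.35 and -2.35 in control livers 1 to 4. All persimmon peel livers lay below the control livers, on average by -0.80. This difference was looked at after the values of both sets were seen and is given as a description, with no test. Without persimmon peel liver 3 this difference was -0.58. The call of the set 1387737_at was lost without control liver 1 (-0.73, adjusted p = 0.0795), control liver 4 (-0.73, adjusted p = 0.0896), persimmon peel liver 1 (-0.80, adjusted p = 0.0599) or persimmon peel liver 3 (-0.66, adjusted p = 0.0554), and with no filter (adjusted p = 0.0698). Lower calls in dimmer sets were common on these arrays: 13.8% of 2981 tested sets that were not the brightest of their gene were lower. Of the 9174 brightest sets 1.93% were lower. These include genes with a single tested set, so the 2 shares do not cover the same genes.

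**Figure D2:**
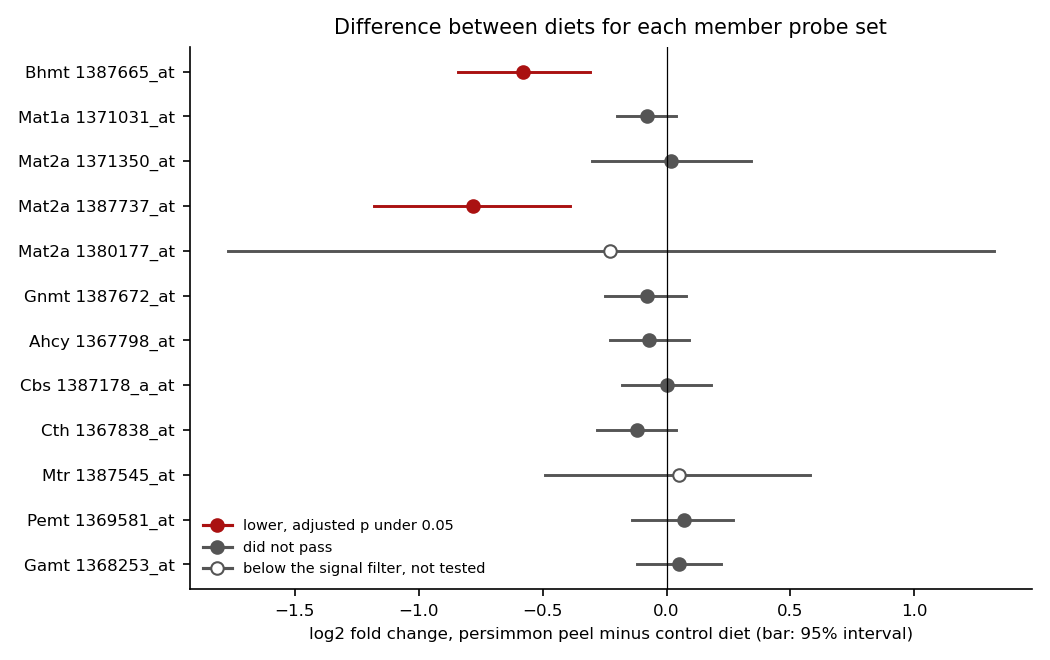
Log2 fold change, persimmon peel minus control diet, of each member probe set (point) with its 95% interval (bar), in red where limma's adjusted p was under 0.05 and open where the set was below the signal filter. Bhmt (-0.58) and the Mat2a set 1387737_at (-0.78) lie below 0 with their intervals, and the intervals of the other 10 sets include 0.

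Gnmt, Pemt and Gamt encode methyltransferases that use much of the SAM in liver. Gnmt encodes glycine N-methyltransferase, which makes sarcosine and holds SAM in check. It had 2358, 2236, 2775 and 2421 units in the persimmon peel livers and 2472, 2686, 2552 and 2630 in the control livers. In 3 of the 4 persimmon peel livers it was below every control liver, and liver 3 was above them all. Its log2 fold change of -0.08 did not pass (95% interval -0.25 to 0.08, adjusted p = 0.593).

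Pemt encodes phosphatidylethanolamine N-methyltransferase, which makes phosphatidylcholine and is a large user of methyl groups. It had 2386, 2104, 3025 and 2474 units in the persimmon peel livers and 2386, 2341, 2285 and 2457 in the control livers. The persimmon peel values reached both above and below all control values, with an SD of 386 against 72.5 (n = 4 each), and the log2 fold change was 0.07 (95% interval -0.14 to 0.27, adjusted p = 0.752). Gamt encodes guanidinoacetate N-methyltransferase, the last step of creatine synthesis. It had 4686, 4018, 5113 and 4434 units in the persimmon peel livers and 4314, 4711, 4065 and 4548 in the control livers, with overlap and a log2 fold change of 0.05 (95% interval -0.12 to 0.22, adjusted p = 0.793).

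Ahcy encodes the hydrolase that splits SAH, a product inhibitor of methyltransferases. It had 4732, 4384, 5471 and 4903 units in the persimmon peel livers and 4873, 5173, 4880 and 5466 in the control livers, and the log2 fold change of -0.07 did not pass (95% interval -0.23 to 0.09, adjusted p = 0.655).

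Cbs and Cth encode the enzymes of transsulfuration: cystathionine beta-synthase joins homocysteine to serine, and cystathionine gamma-lyase releases cysteine. Cbs had 1298, 1300, 1567 and 1342 units in the persimmon peel livers and 1372, 1287, 1458 and 1369 in the control livers. Its mean was 1377 ± 129 on the persimmon peel diet and 1372 ± 69.8 on the control diet (SD, n = 4 each), with a 95% interval of the log2 difference from -0.18 to 0.18 (adjusted p = 0.991). Cth had 3359, 3365, 3430 and 3339 units in the persimmon peel livers and 3379, 4092, 3358 and 3875 in the control livers. The persimmon peel values were close to each other and to the lower control livers, 1 and 3, while control livers 2 and 4 were higher. The log2 fold change of -0.12 did not pass (95% interval -0.28 to 0.04, adjusted p = 0.407).

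Single livers set the order within a diet. Persimmon peel liver 3 was the highest of its diet in 7 of the 10 tested member sets, the bright Mat2a set, Gnmt, Ahcy, Cbs, Cth, Pemt and Gamt, and the lowest in Bhmt and the dim Mat2a set. Its array also had the highest median signal, 39.2, of medians that ran from 33.2 to 39.2 over the 8 arrays. Persimmon peel liver 2 was the lowest of its diet in 6 sets and the highest in Bhmt. Among control livers, liver 4 was the highest in 6 sets, Bhmt and both tested Mat2a sets included. Without persimmon peel liver 3, the log2 differences of Pemt and Gamt were -0.03 and -0.01, and that of the bright Mat2a set was -0.09.

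Beta-actin has control sets for parts of its transcript that track RNA quality and labelling. Middle over 3′ set, the log2 ratio was -1.18, -0.92, -1.09 and -1.06 in persimmon peel livers 1 to 4, against -0.76, -0.77, -0.75 and -0.78 in control livers 1 to 4 (two-sided p = 0.0286 in an exact permutation test, 0.0571 when adjusted over 4 such ratios). For the 5′ over the 3′ set of beta-actin the diets differed by -0.28 (exact p = 0.0286, adjusted 0.0571), and for GAPDH by -0.14 (5′ over 3′, exact p = 0.0857) and -0.01 (middle over 3′, exact p = 0.857). An exact p of 0.0286 is the smallest that this test can give with 4 arrays per diet. The middle to 3′ ratio of beta-actin did not overlap between the diets, so ratio and diet cannot be told apart here. With the ratio as a covariate, neither called member set passed: the estimate was -0.46 (SE 0.31, limma adjusted p = 1) for Bhmt and -0.78 (SE 0.48, limma adjusted p = 1) for the Mat2a set. The bright Mat2a set had a like estimate in that fit, -0.79 (SE 0.30), and did not pass. Nor did any other member set, nor any of the related sets called lower below. The SE of Bhmt was 0.31 in that fit and 0.12 without the covariate. Since ratio and diet go together, a call lost in that fit cannot tell them apart. Without persimmon peel livers 1 and 3, which had the lowest ratios, the estimates were -0.52 for Bhmt (adjusted p = 0.09) and -0.63 for the Mat2a set (adjusted p = 0.183), in a fit with fewer arrays.

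**Figure D3:**
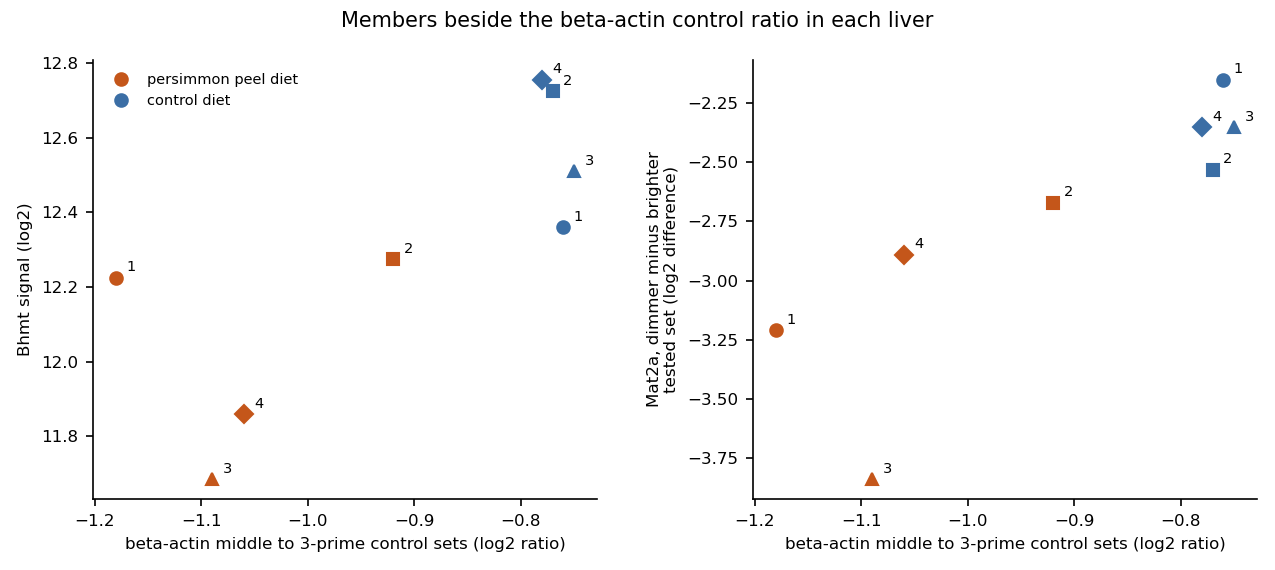
Bhmt signal (log2, left) and the log2 difference between the dimmer and brighter tested Mat2a sets (right) against the log2 ratio of the beta-actin middle to 3′ control sets, 1 point per liver with its replicate number. Persimmon peel livers have ratios from -1.18 to -0.92 and control livers from -0.78 to -0.75, and persimmon peel liver 3 has the lowest value on both vertical axes.

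**Figure D4:**
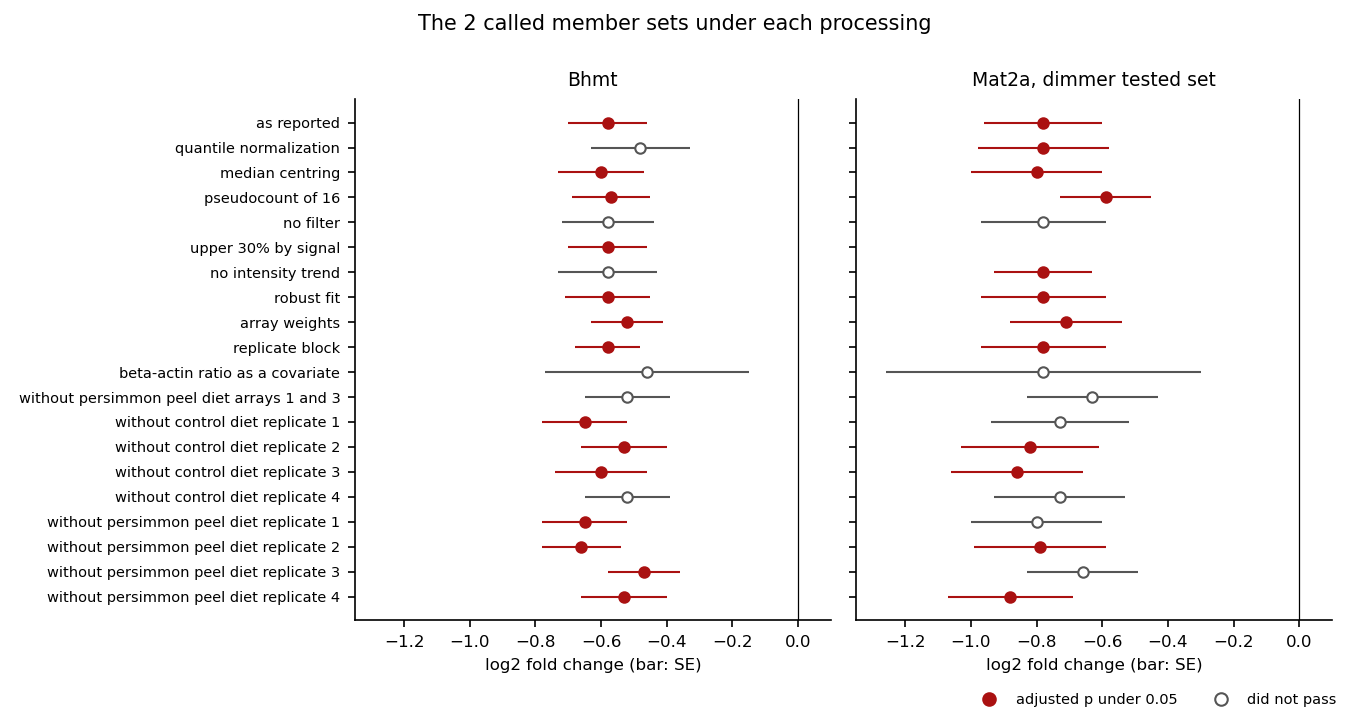
Log2 fold change (point) and SE (bar), persimmon peel minus control diet, of Bhmt and of the Mat2a set 1387737_at under each way of processing, filled red where limma's adjusted p was under 0.05. All points lie below 0, Bhmt from -0.66 to -0.46 and the Mat2a set from -0.88 to -0.59, and the open points mark the fits in which the call was lost.

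The tissue label was checked on markers of liver cells. All 6 hepatocyte markers were tested, and the summed signal of their brightest sets was 53180 to 58908 in the persimmon peel livers and 58347 to 61538 in the control livers. Each of the 6 had a negative log2 fold change, with a median of -0.09, against 51.4% negative over all tested sets. None of these brightest sets passed, while a dimmer set of Cps1 did. Of 8 Kupffer cell markers 7 were tested, and their sum was 5394 to 8772 units in the persimmon peel livers and 4803 to 6198 in the control livers. Of these 7, 1 had a negative log2 fold change, and the median was 0.15. Persimmon peel liver 3 had the highest value of all livers in each of the 7. C1qa, for example, had 1869, 1537, 2839 and 1706 units in persimmon peel livers 1 to 4 and 1519 to 1854 in the control livers. The 5 tested markers of sinusoidal endothelium summed to 2937 to 3905 units in the persimmon peel livers and 3458 to 3770 in the control livers. Of these 5, 3 had a negative log2 fold change, and the median was -0.05. The 5 tested stellate cell markers summed to 745 to 942 units in the persimmon peel livers and 783 to 1172 in the control livers. Of these 5, 4 had a negative log2 fold change, and the median was -0.24. Of the cholangiocyte, lymphocyte and pancreas lists 1 gene each was tested, of the red blood cell list 2, and of the adipocyte list (Adipoq, Plin1 and Lep) 0. In persimmon peel and control livers, Epcam (cholangiocyte) had 196 to 224 and 161 to 234 units, and Ptprc (lymphocyte) 126 to 187 and 175 to 195. Cela1 (pancreas) had 609 to 748 and 656 to 1066 units, and the red blood cell sum was 4483 to 6217 and 3174 to 8589. The other pancreas markers, Prss1, Pnlip and Cpa1, were below the filter and reached at most 13.4, 28.6 and 16 units in any liver. The part of cell composition in the fall of Bhmt was not tested.

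Genes next to the cycle were taken from lists by role, 69 genes in all, of which 59 had a tested set. By the brightest set of each gene, 2 of 59 were lower and 0 were higher, with 1.93% lower and 0.469% higher over the brightest sets of all genes. Without adjustment, 11 were lower and 1 was higher at a limma p under 0.05, with 9.48% lower and 6.8% higher over the brightest sets of all genes. The median log2 fold change was -0.06 over these 59 genes and 0.01 over all genes. The lower genes were Bhmt2 and Got1. Over all 78 tested sets of these genes, 7 were lower, with 4.53% lower over all tested sets of the array. Besides Bhmt2 and Got1, these were 5 dimmer sets of Adk, Ahcyl1, Chpt1 and Gclc. These 5 were among 19 tested sets of related genes that were not the brightest of their gene, a share of 26.3%, against 13.8% of such sets over the whole array. In the 15 related genes with several tested sets, 0 of the brightest sets were lower.

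Among 13 tested genes of remethylation and the folate cycle, 1 was lower. It was Bhmt2, the neighbour and close relative of Bhmt, whose enzyme in human and mouse remethylates homocysteine with S-methylmethionine. Its signal was 5817, 5975, 5414 and 5651 in the persimmon peel livers, against 6599, 6515, 6825 and 7384 in the control livers. The diets did not overlap, and the log2 fold change was -0.26 (SE 0.06, adjusted p = 0.0293). How far the probes of Bhmt and Bhmt2 can bind each other's transcript was not tested. The call of Bhmt2 held in 2 of the 8 fits that left out a liver, those without control liver 2 or persimmon peel liver 2, and was lost with the beta-actin ratio as a covariate (-0.21, adjusted p = 1). Of all 19 other fits it held in 6. It was lost under quantile normalization (-0.16, adjusted p = 0.156), median centring (-0.28, adjusted p = 0.0515) and no filter (-0.26, adjusted p = 0.143). Mmachc, a cobalamin chaperone, had the largest p of this role (-0.02, 95% interval -0.26 to 0.22). Mthfd2, Mthfd2l, Mthfd1l and Tyms were below the filter.

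Of 9 tested sets for the control of SAM synthesis and the handling of SAH products, 3 were lower, with 4.53% lower over all tested sets. All 3 were dimmer sets, from 2 genes. The other tested dimmer set of this role, of Mettl16, did not pass (0.24, adjusted p = 0.471). Of all sets dimmer than the brightest of their gene, 13.8% were lower over the whole array. By brightest set, 0 of the 5 tested genes of this role were lower. Ahcyl1, a relative of the SAH hydrolase that acts in calcium signalling, was lower in both of its dimmer sets. The set 1395273_at had 38.8, 57.5, 51.6 and 35.2 units in the persimmon peel livers, against 112, 88.3, 96.9 and 129 in the control livers, with -1.23 as the log2 fold change (adjusted p = 0.00312, SE 0.19). The set 1383004_at changed by -0.82 (SE 0.13, adjusted p = 0.00376), and the brightest set of the gene differed by -0.12 (SE 0.08, adjusted p = 0.427). Adk encodes adenosine kinase, which removes the adenosine released from SAH. Its dimmer set had 1385, 1793, 1411 and 1706 units in the persimmon peel livers and 2184, 2274, 2072 and 2440 in the control livers (log2 fold change -0.52, SE 0.10, adjusted p = 0.00728), while its brightest set differed by -0.15 (SE 0.06, adjusted p = 0.175). The diets did not overlap in either Adk set. The calls of the Adk set and of both dimmer Ahcyl1 sets held in all 8 fits that left out a single liver. With the beta-actin ratio as a covariate none of the 3 passed (each adjusted p = 1), and the estimates were -0.10 for Adk, -0.72 for the Ahcyl1 set 1395273_at and -0.54 for 1383004_at. Without persimmon peel livers 1 and 3 the Adk set (-0.36, adjusted p = 0.0878) and the Ahcyl1 set 1383004_at (-0.74, adjusted p = 0.058) lost the call, and 1395273_at kept it (-1.23, adjusted p = 0.0451). Mat2b, the regulatory subunit of the Mat2a enzyme, had 592 ± 69.6 units on the persimmon peel diet and 739 ± 44.9 on the control diet (SD, n = 4 each), did not overlap, and did not pass (-0.33, SE 0.10, adjusted p = 0.0795). Ahcyl2 had the largest p of this role (-0.13, adjusted p = 0.577).

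**Figure D5:**
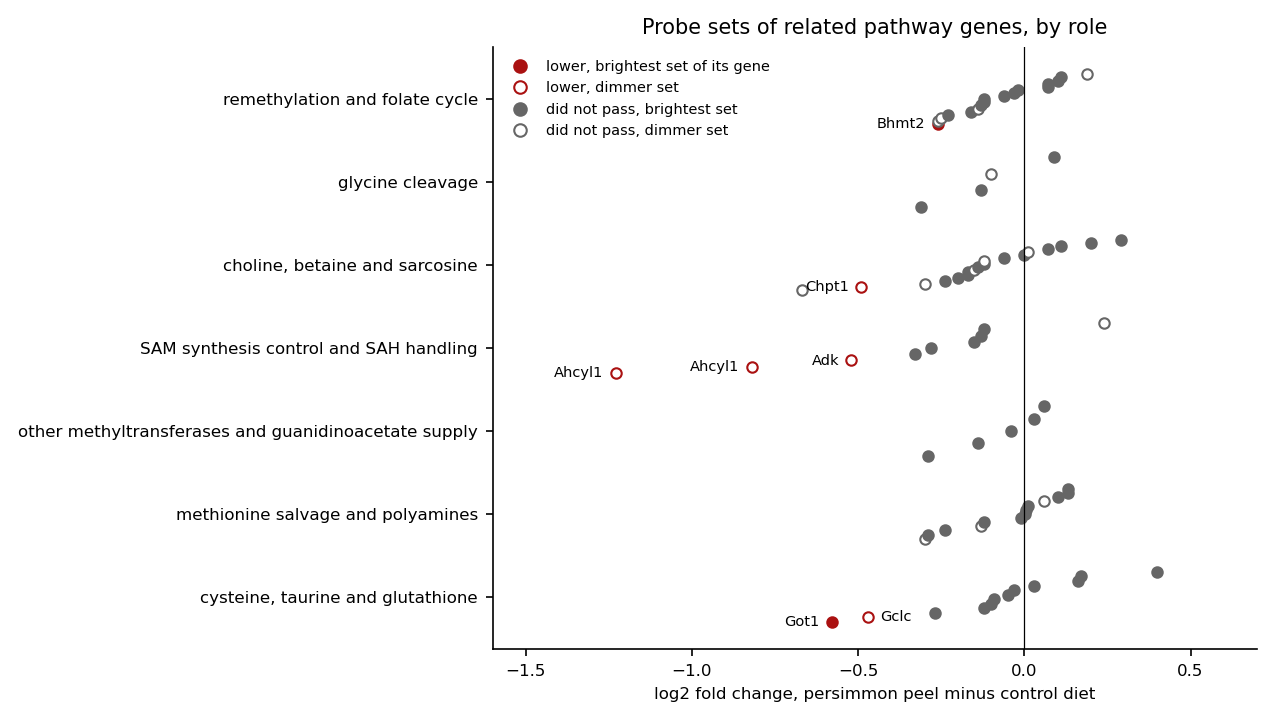
Log2 fold change, persimmon peel minus control diet, of the 78 tested probe sets of related genes by role, filled for the brightest set of a gene, open for a dimmer set and red where limma's adjusted p was under 0.05. The 7 red points all lie below 0, from -1.23 (Ahcyl1) to -0.26 (Bhmt2), and 5 of them are dimmer sets.

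Of 12 tested genes of choline, betaine and sarcosine metabolism, 0 passed by their brightest set in the limma fit. Dmgdh, which takes up the dimethylglycine left by Bhmt, was the nearest (1798 ± 95.2 units on the persimmon peel diet and 2118 ± 115 on the control diet, SD, n = 4 each, log2 fold change -0.24, adjusted p = 0.0838), and Chkb, a choline kinase, had the largest p. A dimmer set of Chpt1, choline phosphotransferase, was lower (-0.49, SE 0.10, adjusted p = 0.0121), and its brightest set differed by -0.14 (adjusted p = 0.293). The call of the dimmer set was lost with the beta-actin ratio as a covariate (-0.23, adjusted p = 1) and without persimmon peel livers 1 and 3 (-0.35, adjusted p = 0.152).

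Of 11 tested genes of cysteine, taurine and glutathione metabolism, Got1, a cytosolic aspartate aminotransferase that also acts on cysteine sulfinate, was lower. It had 775, 884, 593 and 579 units in the persimmon peel livers, against 1321, 1132, 897 and 864 in the control livers, and the diets overlapped between persimmon peel liver 2 and control liver 4. The log2 fold change was -0.58 (SE 0.15, adjusted p = 0.0446), and the call held in 1 of the 8 fits that left out a liver, that without persimmon peel liver 2. With the beta-actin ratio as a covariate the estimate was -0.26 (adjusted p = 1). Of all 19 other fits the call of Got1 held in 6, and it was lost under quantile normalization (-0.53, adjusted p = 0.106). Gclc encodes the catalytic subunit of the first enzyme of glutathione synthesis. Its dimmer set was lower (-0.47, SE 0.11, adjusted p = 0.0273) and its brightest set differed by -0.03 (adjusted p = 0.876). The call of the dimmer set held in 3 of the 8 fits that left out a liver, those without control liver 2, persimmon peel liver 2 or persimmon peel liver 4. It was also lost with the beta-actin ratio as a covariate (-0.05, adjusted p = 1) and without persimmon peel livers 1 and 3 (-0.29, adjusted p = 0.216).

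None of the genes of the 3 other roles passed by its brightest set: glycine cleavage with 3 tested genes, other methyltransferases and guanidinoacetate supply with 5, and methionine salvage and polyamines with 10. The smallest p of each role belonged to Gldc (-0.31, adjusted p = 0.317), Gatm (-0.29, adjusted p = 0.199), which supplies the substrate of Gamt, and Adi1 (-0.24, adjusted p = 0.111). The largest belonged to Amt (0.09, adjusted p = 0.689), Inmt (0.03, adjusted p = 0.957) and Apip (0.0012, adjusted p = 0.997).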

How the data were processed

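Total RNA from 8 livers was labelled as biotin cRNA and measured on 1-colour Affymetrix arrays, per the labels' protocols. Linear intensity values were deposited for 31099 probe sets, and the submitters' processing notes name MAS5, with no version. Its scaling target is not stated there. Depth does not apply to arrays, and their number, 4 per diet, limits the precision. That each array was a separate animal rests on the design text and the numbered labels.

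Of the value columns, 8 were used and 0 were left over. Member sets were taken by platform symbol, and related genes by symbols updated through RefSeq GRCr8. Log2 was taken without a pseudocount, the 57 control sets and the dimmest 50% of the rest were left out, and diets were compared with limma (version 3.58.1, R 4.3.3; lmFit, eBayes with intensity trend, two-sided). Ratios of control sets were compared by exact permutation of the arrays (70 splits). On data simulated for this comparison (15521 sets, 50 changed at each of 4 sizes), noise was drawn independently for each set. The fit recovered 5 of 50 sets at 1.25-fold, 21 at 1.5-fold, 43 at 2-fold and 48 at 3-fold, and it called 5 unchanged sets. Sets that vary together were not simulated, so these counts hold for the simulated setting.

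The members, the lists and the tests were chosen with earlier results of these data known. The text names all member sets and, by role, the related genes past the threshold and those with the smallest and largest p of their brightest set. Same-numbered livers did not deviate together (correlations of -0.085 to 0.054 over the tested sets), so the numbers were not taken as pairs. Alternatives were other normalizations and centring, a pseudocount of 16, other filters, other variance settings, array weights, a replicate block, the beta-actin ratio as a covariate, the mean of a gene's sets, and leaving out arrays.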

Additional observations from a re-analysis of the deposited data

Results flagged for a closer look

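Among 46 groups of 4 livers looked at, 1 held a liver far from the rest, and chance gives about 1 in 20. In the dimmer set of Chpt1, 1379770_at, control liver 4 had 2029 units against 1610 to 1667 in the other control livers, and its gap to the nearest was 0.851 of the group's range on the log2 scale, above Dixon's critical value for 4 samples. The persimmon peel livers had 1114 to 1374 units, and this set was called lower on the persimmon peel diet in all 8 fits that left out a liver, most narrowly without persimmon peel liver 1 (adjusted p just under the threshold of 0.05).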

How the results depend on the processing

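The number of lower member sets was 2, and 1 under quantile normalization, in the upper 30% by signal (where the dim Mat2a set was not tested) and without the intensity trend. It was 0 with no filter, with the beta-actin ratio as a covariate and without persimmon peel livers 1 and 3, and 0 to 2 with each liver left out. No fit called a member higher. Bhmt stayed negative in 19 of 19 other fits and was called in 13. It did not pass under quantile normalization (-0.48), no filter (-0.58), no trend (-0.58), the covariate (-0.46) or without persimmon peel livers 1 and 3 (-0.52), and ran from -0.66 to -0.47 with a liver left out. The dim Mat2a set was negative in 18 of 18 fits and called in 11. It did not pass with no filter (-0.78), the covariate (-0.78) or without persimmon peel livers 1 and 3 (-0.63), and ran from -0.88 to -0.66 with a liver left out.

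Lower related genes by brightest set were 2, and 1 under quantile normalization, median centring, the robust fit or the replicate block, 4 with array weights, 0 with no filter, no trend, the covariate or without persimmon peel livers 1 and 3, and 0 to 4 with a liver left out. With the mean of a gene's tested sets in place of its brightest set, 3 were lower and 0 were higher. Higher genes by brightest set were 1 under quantile normalization and 0 to 1 with a liver left out. In that normalization the lower gene was Mat2b and the higher one Gss, named after their values were seen. The replicate block left the member calls at 2 (Bhmt, adjusted p = 0.00543). In their deviations from the mean of their diet, persimmon peel livers 1, 2, 3 and 4 were most like control livers 2, 4, 3 and 1.

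Differences that did not pass changed sign in some fits. The bright Mat2a set was -0.00033 with median centring, -0.79 with the covariate, -0.20 without persimmon peel livers 1 and 3 and -0.09 to 0.18 with a liver left out. Ahcy was 0.02 under quantile normalization. Cbs was -0.02 with median centring, -0.03 with array weights, -0.04 with the covariate, -0.05 without persimmon peel livers 1 and 3 and -0.06 to 0.03 with a liver left out. Pemt and Gamt were -0.25 and -0.28 with the covariate, -0.05 and -0.06 without persimmon peel livers 1 and 3, and -0.03 to 0.14 and -0.01 to 0.11 with a liver left out. The fits without persimmon peel livers 1 and 3 used fewer arrays, and the other causes were not tested. Signals near 34.4 units, as in the dim Mat2a set, limit what a fold change can show.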

Other observations

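Over the 8 arrays, the log2 signal of Bhmt was most like that of Ppp2r5e, Get1, Tsc22d3, Rpe and Tti2, with Pearson r from 0.957 to 0.991. That of the dim Mat2a set was most like Mdm2, Hnrnpa3, Nap1l1, Snx16 and Nxt2, with r from 0.980 to 0.994. At r of at least 0.9 stood 116 tested sets for Bhmt and 183 for the Mat2a set. Since the diets did not overlap in either set, these values carry the difference between the diets and are given as a description.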
